A study of Mus musculus with 298 samples.

Results

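The 10 genes described here are Ciita, the invariant chain gene Cd74, and classical and non-classical major histocompatibility complex (MHC) class II genes, measured in mouse blood. H2-DMb2, a further class II gene, is not among the 10 and is described below in another list. The 10 are Ciita, Cd74, H2-Aa, H2-Ab1, H2-Eb1, H2-Eb2, H2-DMa, H2-DMb1, H2-Oa and H2-Ob, chosen by name from the 14605 genes measured. All 10 had a mean level of at least 1 TPM (the length-scaled share of a library's transcripts, with the same total in every library) and were among the 10519 genes tested. The 298 libraries, 1 per mouse and week, came from blood of 20 C57BL/6 mice of both sexes that entered the study at 6 to 8 weeks of age. Every mouse, controls included, carried tTA+/- and BCR-ABL+/-, so that the human BCR-ABL oncogene of chronic myeloid leukaemia (CML) was off while tetracycline was in the drinking water (0.5 g/L) and came on when it was withdrawn. The SCL promoter drives tTA, which limits expression largely to blood stem and progenitor cells and their progeny.

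CML mice (6 mice, 94 libraries) had tetracycline withdrawn at week 0. TKI mice (7 mice, 99 libraries) had it withdrawn too, and between weeks 6 and 10 they were gavaged daily with 50 mg/kg of nilotinib, which blocks the kinase that BCR-ABL encodes. TOTO mice (4 mice, 48 libraries) had it withdrawn for 6 weeks and then given again. Control mice (3 mice, 57 libraries) stayed on tetracycline throughout. CML, TKI and TOTO mice together are called Tet-off mice below.

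Class II molecules present peptides from the endosomal pathway to CD4 T cells and are made mainly by B cells, dendritic cells and activated monocytes and macrophages. CIITA, the product of Ciita, is recruited to class II promoters by factors bound at conserved sequences called the X and Y boxes, and without it the genes are largely silent. In C57BL/6 mice the alpha and beta chains of the I-A molecule are H2-Aa and H2-Ab1, while the I-E beta chain RNA H2-Eb1 is made without a functional I-E alpha chain, so that no I-E molecule reaches the surface.

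The X and Y box letters were looked up in RefSeq promoter windows (GRCm38.p6, from 250 bases before to 50 bases after a gene's start), because these boxes are where CIITA acts. Windows were given for 7 of the 10 genes. Ciita, Cd74 and H2-Ab1 had none. In 6 of the 7 the letters GNNAC, a core within the X box, were followed by ATTGG, the Y box core CCAAT read on the other strand. There were 30 to 33 bases between the first letters of GNNAC and ATTGG. That range was read from these genes and then searched on both strands of all windows, and 2.47% of 32544 windows held such a pair (CCAAT alone on either strand, 37.4%). The windows of H2-DMa held no such pair. The stretches below are written 5′ to 3′ on the strand of the gene, with the X and Y letters in capitals. They lie at chr17:34092293-34092345 (+, H2-Oa), chr17:34153087-34153139 (+, H2-DMb1), chr17:34238808-34238857 (+, H2-Ob), chr17:34287862-34287914 (-, H2-Aa), chr17:34305766-34305817 (+, H2-Eb1) and chr17:34325533-34325584 (+, H2-Eb2).
H2-Oa: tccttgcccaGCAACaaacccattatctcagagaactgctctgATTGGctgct
H2-DMb1: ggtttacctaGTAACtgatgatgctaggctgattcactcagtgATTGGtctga
H2-Ob: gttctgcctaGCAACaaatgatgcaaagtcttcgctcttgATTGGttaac
H2-Aa: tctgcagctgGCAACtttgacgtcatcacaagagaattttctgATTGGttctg
H2-Eb1: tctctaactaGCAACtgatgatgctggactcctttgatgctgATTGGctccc
H2-Eb2: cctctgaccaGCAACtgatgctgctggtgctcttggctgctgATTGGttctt
Of the 6 stretches, 5 had GCAAC and H2-DMb1 had GTAAC at the X position.

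In GENCODE M39 (GRCm39), 8 of the 10 genes lie on chromosome 17, between 34311314 (the start of H2-Oa) and 34560386 (the end of H2-Eb2). Ciita lies on the plus strand of chromosome 16 at 10297923 to 10347694 and Cd74 on the plus strand of chromosome 18 at 60936899 to 60945731. H2-Aa is on the minus strand (34493404 to 34506798) and overlaps H2-Eb1 on the plus strand (34504236 to 34535648). The sources used here do not give whether the quantification used strand, so reads from the overlap may have been shared. H2-DMb1 (34372046 to 34379204) has a near-identical neighbour, H2-DMb2, and the division of reads between them is uncertain.

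The tissue label reads PBMC (mononuclear cells), while the extraction described used whole blood, and haemoglobin transcripts took 0.331% to 74.8% of TPM per library (median 42.6%). Because a library's TPM sum is fixed, each comparison is also given after rescaling libraries by median-ratio size factors, which ran from 0.13 to 4.18. Sequencing depth is unknown. BCR-ABL transcripts rose by 2.49 on the log2 scale from tetracycline withdrawal to week 6 in Tet-off mice (limma, adjusted p = 3.35e-05), with medians at week 6 of 1.40 TPM in CML, 11.1 in TKI and 5.64 in TOTO mice, against 0 in controls. In CML mouse 487 they were at 0 in 16 of 19 libraries. The week 17 library of control mouse 490 had a median correlation of 0.418 with the others, against a median of 0.923 over libraries. It held 3.53 TPM of H2-Aa and 0 of H2-DMa beside 308 TPM of H2-Ob, and it enters no test.

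The genes differed widely in level. Over all libraries Cd74, the invariant chain that blocks the peptide groove of new class II molecules and guides them to endosomes, averaged 859 TPM. The I-A chains H2-Aa and H2-Ab1 averaged 306 and 214 TPM and H2-Eb1 averaged 249 TPM, while H2-Eb2, a little studied second I-E beta gene, averaged 3.85 TPM. H2-DMa and H2-DMb1, the subunits of the H2-DM molecule that exchanges invariant chain peptide for antigen, averaged 35.2 and 23.9 TPM. H2-Ob and H2-Oa, the subunits of the H2-O molecule that inhibits H2-DM and is made largely in B cells, averaged 68.3 and 15.0 TPM, and Ciita averaged 17.0 TPM. TPM is scaled by transcript length, which allows levels to be compared between genes. For H2-Aa, H2-Eb1 and H2-DMb1 the uncertain division of reads described above limits this comparison.

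**Figure D1:**
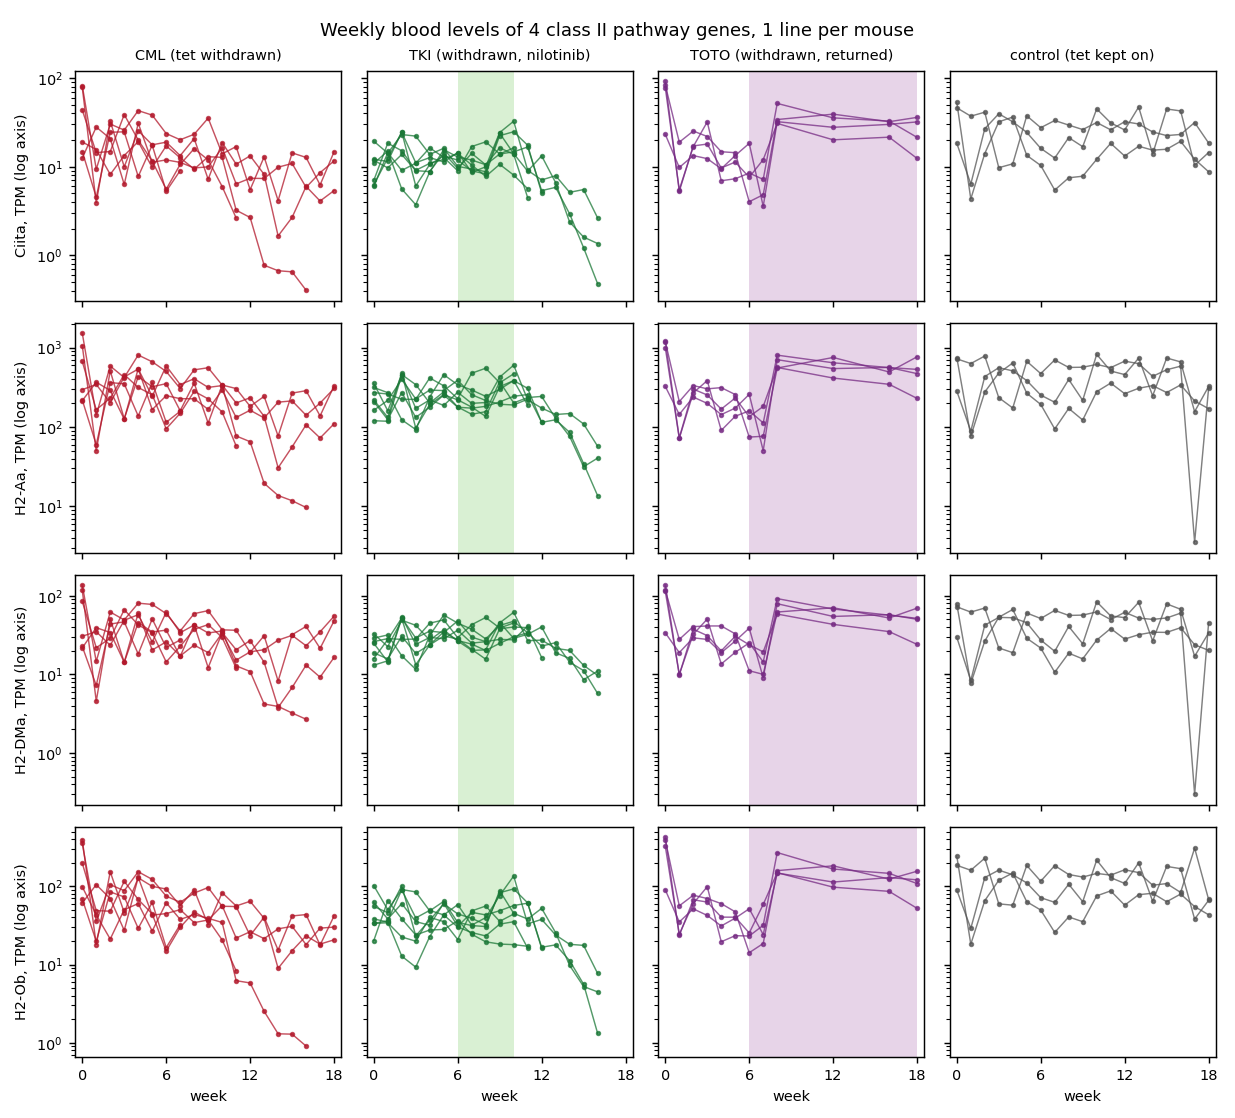
TPM (log axis) of Ciita, H2-Aa, H2-DMa and H2-Ob by week, 1 line per mouse and 1 column per cohort, with the weeks of nilotinib shaded green and those of returned tetracycline purple. Values of 0 are drawn at 0.3. TOTO lines step up between weeks 7 and 8, and the TKI lines that go on to week 16 end between 13.6 and 57.2 TPM for H2-Aa, below the control mice.

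The baseline already spread widely. At week 0 H2-Aa stood at 215, 483 and 1529 TPM (lowest, median and highest) in CML mice, at 120, 219 and 355 TPM in TKI mice, and at 325, 1096 and 1213 TPM in TOTO mice, against 283, 722 and 749 TPM in control mice. At week 6 it stood at 94.9, 300.1 and 588 TPM in CML mice, at 177, 227 and 388 TPM in TKI mice, and at 74.6, 147 and 258 TPM in TOTO mice, against 192, 252 and 471 TPM in control mice. On the TPM scale TKI mice thus had the lowest median at week 0, and the cohorts overlapped at week 6. After rescaling the order of the cohorts turned, with week 0 means of 396 ± 141 in TKI, 278 ± 66.0 in CML and 296 ± 23.7 in TOTO mice, against 307 ± 8.36 in control mice (SD). The rescaled ranges were 209 to 389 in CML, 285 to 645 in TKI and 276 to 330 in TOTO mice, against 299 to 315 in control mice.

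The question of the induction comparison was what happened to class II RNA as the transgene came on. In the 17 Tet-off mice, 4 of the 10 genes fell at week 6 relative to week 0 (limma, adjusted p under 0.05), where 12.2% of all genes tested fell, and none rose. H2-Ob fell by 1.56 on the log2 scale (SE 0.38, adjusted p = 0.0095) and was lower in 15 of 17 mice. H2-DMb1 fell by 1.30 (SE 0.37, adjusted p = 0.020), H2-Ab1 by 1.04 (SE 0.34, adjusted p = 0.035) and Ciita by 1.02 (SE 0.35, adjusted p = 0.042), each lower in 13 of 17 mice. The remaining 6 genes had changes between -0.46 for H2-DMa (adjusted p = 0.30) and -0.87 for H2-Aa (adjusted p = 0.069). The median over the 10 genes was -0.86, beside -0.34 over all genes tested. The 12 B cell genes listed had a median of -1.38 in the same comparison, and in bulk blood fewer cells of a type and less RNA per cell cannot be told apart. In a fit with the labels' batch as a term none of the 10 passed, with changes of -1.46 for H2-Ob (adjusted p = 0.082) and -0.96 for Ciita (adjusted p = 0.15). The count was 2 without any 1 of CML mice 477, 480, 484 and 487, TOTO mice 476, 482 and 483, or TKI mouse 512, and 9 without TKI mouse 502. With haemoglobin genes and the small RNA gene Rn7s2 left out of the TPM total, all 10 were lower. The shares of all genes in these alternative fits are not given, so their counts cannot be set against a background.

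After rescaling, 9 of the 10 genes were lower and none higher (32.6% of all genes were lower and 41.2% higher on that scale). H2-Ob fell by 1.10 (SE 0.12, adjusted p = 8.4e-08) and H2-DMb1 by 0.84 (SE 0.11, adjusted p = 9.2e-07), and both were lower in all 17 mice, as was Ciita, which fell by 0.57 (SE 0.09, adjusted p = 4.3e-06). The I-A chain gene H2-Aa fell by 0.40 (SE 0.12, adjusted p = 0.0043) and was lower in 13 of 17 mice. The mice in which it was higher were all CML mice, 484, 487, 541 and 542. Their rescaled levels went from 213 to 217, 278 to 360, 282 to 322 and 301 to 556. H2-DMa did not pass, at 0.01 (SE 0.09, adjusted p = 0.96), lower in 9 of 17 mice. The count of 9 was the same without any 1 mouse, 487 included. The 10 genes thus covered a range from no detected change in H2-DMa to more than 1 log2 unit in H2-Ob.

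Control mice went down over the same weeks. The control change of H2-Ob was -1.09 ± 1.04 on the TPM scale and -0.11 ± 0.22 after rescaling, and that of H2-Aa was -0.91 ± 0.93 and 0.07 ± 0.15 (SD, n = 3). In the Tet-off cohorts the rescaled change of H2-Ob was -0.74 ± 0.45 in CML mice (n = 6), -1.22 ± 0.45 in TKI mice (n = 7) and -1.44 ± 0.27 in TOTO mice (n = 4). Tested as a difference from controls, none of the 10 genes passed on the TPM scale, where no gene of all those tested passed (0% called, 232 genes at an unadjusted p under 0.05). On the rescaled scale 2 of the 10 were lower in Tet-off mice (6.58% of all genes lower), H2-Ob at -0.99 (SE 0.30, adjusted p = 0.040) and H2-DMb1 at -0.91 (SE 0.29, adjusted p = 0.043). The rescaled count was 0 without any 1 of the 3 control mice (488, 489 or 490) and without mouse 483, 507, 512 or 545, and 3 without mouse 487 or 542. Within batch 2021_E the rescaled difference of H2-Ob was -0.36 (2 Tet-off and 2 control mice) and within 2022_A it was -1.46 (10 Tet-off mice and 1 control mouse). Batch 2022_B held no control mouse.

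**Figure D2:**
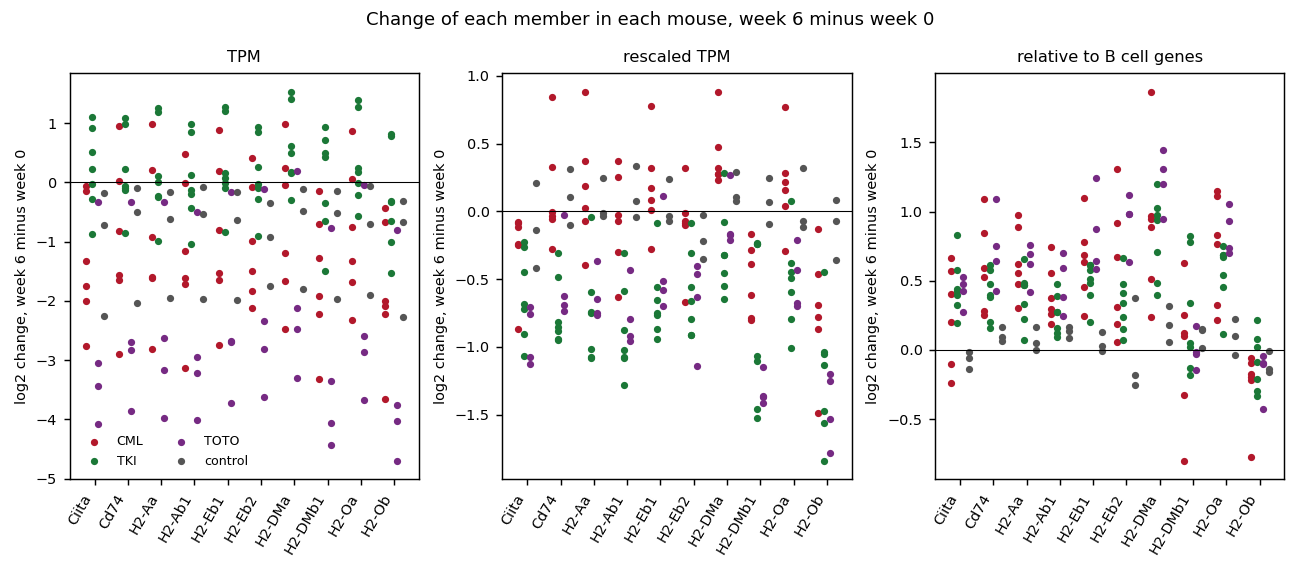
Log2 change of each of the 10 genes from week 0 to week 6 in each mouse, 1 point per mouse by cohort, on the TPM scale, after rescaling, and relative to the B cell genes. After rescaling, H2-Ob, H2-DMb1 and Ciita lie below 0 in all 17 Tet-off mice, while H2-DMa lies on both sides of 0, below it in 9 of 17.

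Most of the fall on the TPM scale was there after the first week. At week 1, 7 of the 10 genes had fallen in Tet-off mice relative to week 0 (2.22% of all genes fell), with a median of -1.36 over the 10 genes and -0.58 over all genes. H2-Aa fell by 1.45 (SE 0.40, adjusted p = 0.029), Cd74 by 1.38 (SE 0.40, adjusted p = 0.036) and H2-Ob by 1.41 (SE 0.42, adjusted p = 0.039). After rescaling all 10 were lower (33% of all genes were), with a median of -0.68. In control mice, whose tetracycline had not changed, H2-Aa changed by -1.71 ± 1.54 and H2-Ob by -1.82 ± 1.74 (SD, n = 3). With the control change subtracted none of the 10 passed on either scale, and their median difference was 0.41 on the TPM scale and -0.46 after rescaling. With batch as a term none passed, with H2-Aa at -1.35 (adjusted p = 0.21), and none passed on the TPM scale without any 1 of mice 476, 477, 480, 482, 483, 484 and 487. Without TKI mouse 511 all 10 passed.

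From week 1 to week 6 the genes moved apart. H2-DMa rose by 0.73 (SE 0.22, adjusted p = 0.019) and H2-Oa by 0.64 (SE 0.21, adjusted p = 0.032) in Tet-off mice, which made 2 of 10 higher where 16.9% of all genes were higher. After rescaling, 6 of 10 were higher (31.5% of all genes), led by H2-DMa at 0.52 (SE 0.09, adjusted p = 2.9e-05), while Ciita, at -0.23 (SE 0.07, adjusted p = 0.0091), and H2-Ob, at -0.38 (SE 0.11, adjusted p = 0.0046), were lower (30.3% of all genes). With the control change subtracted none passed on either scale, and with batch as a term none passed on the TPM scale. On that scale 1 of 10 passed without any 1 of mice 477, 480, 482, 483, 487, 502, 508 and 545, and 7 passed without mouse 476.

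The return of tetracycline asked whether these levels came back when the transgene was shut off. All 10 genes rose in TOTO mice at week 18 relative to week 6 (limma, adjusted p from 3.2e-05 to 0.038), where 18.2% of all genes rose, with a median of 1.42 over the 10 genes and 0.44 over all genes. H2-Aa stood at 768, 229, 532 and 470 TPM at week 18 in TOTO mice 476, 482, 483 and 545, against 74.6, 135, 160 and 258 TPM at week 6. The 4 mice all rose, and the ranges overlapped only through mouse 482 at week 18 and mouse 545 at week 6. In control mice 488, 489 and 490 it stood at 324, 170 and 310 TPM at week 18, against 252, 192 and 471 TPM at week 6. The mean in TOTO mice was 499.8 ± 221 TPM at week 18 and 157 ± 76.2 TPM at week 6 (SD, n = 4), a rise of 1.68 on the log2 scale (SE 0.38, adjusted p = 0.0013).

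Ciita stood at 36.1, 12.4, 21.4 and 32.0 TPM at week 18 in the same 4 TOTO mice, against 4.03, 7.59, 8.47 and 18.3 TPM at week 6. Every mouse was higher, and Ciita rose by 1.38 (SE 0.30, adjusted p = 0.00096). H2-Ob stood at 156, 52.4, 109 and 121 TPM at week 18, against 14.2, 25.4, 23.2 and 51.7 TPM at week 6. Its groups of values did not overlap, and its rise of 1.95 (SE 0.33, adjusted p = 3.2e-05) was the largest of the 10. Cd74 stood at 2064, 657, 1417 and 1295 TPM at week 18, against 242, 539, 463 and 792 TPM at week 6, and rose by 1.42 (SE 0.35, adjusted p = 0.0030). H2-DMa stood at 69.7, 24.1, 51.7 and 50.2 TPM at week 18, against 11.1, 23.8, 25.2 and 38.8 TPM at week 6. It rose least, by 0.98 (SE 0.35, adjusted p = 0.038), and was nearly level in mouse 482.

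The shut-off and induction comparisons share the week 6 libraries of these 4 mice. By week, with no test, the step on the TPM scale lay between weeks 7 and 8. At week 8 H2-Aa stood at 553, 563, 805 and 706 TPM in the 4 TOTO mice, against 76.3, 182, 113 and 50.2 TPM at week 7, and the weeks did not overlap. H2-Ob ranged from 148 to 271 TPM at week 8, against 18.6 to 58.7 TPM at week 7. BCR-ABL transcripts were at 0 in all 4 mice at week 8. After rescaling, part of the step came a week earlier for some genes. Rescaled H2-Ob in TOTO mice ranged from 26.7 to 42.4 at week 6, from 51.2 to 97.1 at week 7 and from 83.7 to 109.9 at week 8, so that weeks 6 and 7 did not overlap. Rescaled medians of H2-DMb1 were 12.6, 24.1 and 26.8 at weeks 6, 7 and 8, while those of H2-Aa were 189, 222 and 358. The timing of the step thus differed with the scale and between genes.

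At week 8 all 4 TOTO mice were above the control range on the TPM scale for 6 of the 10 genes, Ciita, Cd74, H2-Eb1, H2-DMa, H2-Oa and H2-Ob, and the ranges overlapped for the other 4. The share of all genes tested that stood above the control range is not given, so this count is a description only. H2-Ob then ranged from 148 to 271 TPM in TOTO mice, against 40.6 to 142 TPM in control mice. At weeks 12, 16 and 18 the TPM ranges of the cohorts overlapped for all 10 genes, for example 345 to 563 TPM of H2-Aa in TOTO mice at week 16, against 339 to 661 TPM in control mice. After rescaling no gene was above the control range at weeks 8, 12, 16 or 18, while H2-Ab1 was below it at weeks 8 and 16 and H2-DMb1 at week 8.

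After rescaling, 9 of the 10 genes were higher at week 18 (24.3% of all genes were higher), with H2-Ob at 1.27 (SE 0.18, adjusted p = 0.00020), H2-Aa at 0.98 (SE 0.18, adjusted p = 0.0010) and H2-DMa not past the threshold at 0.31 (SE 0.18, adjusted p = 0.17). With the control change subtracted 7 of 10 were higher on the TPM scale (3.93% of all genes were), among them Ciita at 1.69 (adjusted p = 0.017) and H2-Ob at 2.30 (adjusted p = 0.0026), and 8 of 10 after rescaling (19.2% of all genes). All TOTO libraries were in batch 2022_A, with 1 control mouse, and with batch as a term none of the 10 passed, with H2-Ob at 1.23 and H2-Aa at 0.67. Without TOTO mouse 476, 7 of 10 passed on the TPM scale, and after rescaling 6 passed without mouse 476 and 6 without mouse 483. The model borrowed heavily from the spread of all genes in this comparison (42.3 prior against 7 residual degrees of freedom).

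**Figure D3:**
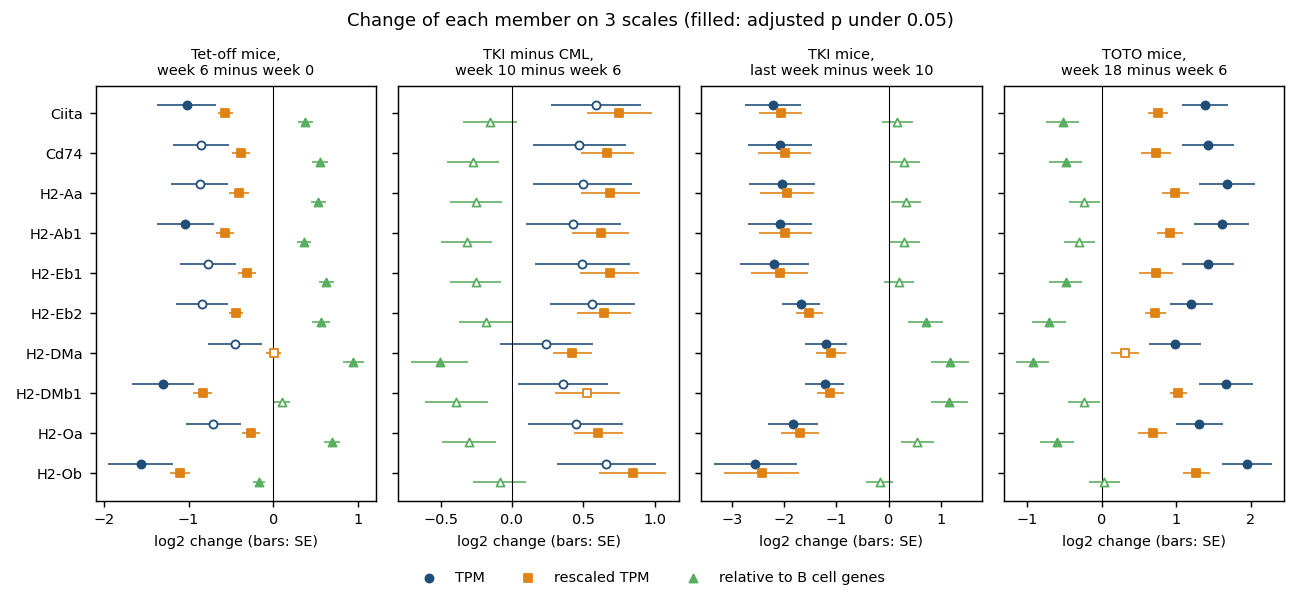
Log2 change of each of the 10 genes with its standard error, at induction, for nilotinib minus untreated CML mice, after nilotinib and at shut-off, on the TPM scale (circles), after rescaling (squares) and relative to the B cell genes (triangles), filled where the adjusted p was under 0.05. On the TPM and rescaled scales shut-off lies above 0 and the weeks after nilotinib below 0 for all 10 genes.

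Nilotinib was given from week 6 to week 10 with the transgene left on. None of the 10 genes passed in TKI mice at week 10 relative to week 6 on the TPM scale (5.36% of all genes did in either direction), with changes from 0.20 for H2-DMa to 0.54 for H2-Ob (SE 0.22, adjusted p = 0.16). H2-Ob stood at 18.0, 45.2 and 136 TPM (lowest, median and highest) at week 10, against 20.9, 34.6 and 58.4 TPM at week 6, and was higher in 6 of 7 mice, with overlapping ranges. On this scale 3 genes passed without TKI mouse 511. After rescaling, 4 of 10 were higher (16.1% of all genes were), namely H2-Ob at 0.48 (SE 0.15, adjusted p = 0.023), Ciita at 0.41 (SE 0.15, adjusted p = 0.042), H2-Eb2 at 0.40 (SE 0.12, adjusted p = 0.019) and H2-Oa at 0.35 (SE 0.11, adjusted p = 0.024). None passed without TKI mouse 502, 507, 508 or 514, and 9 passed without mouse 513. With the control change subtracted none passed on either scale.

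Set against the change in untreated CML mice over the same weeks, none of the 10 passed on the TPM scale (0.038% of all genes called; 1372 genes at an unadjusted p under 0.05). After rescaling, 9 of 10 had a higher change in TKI than in CML mice (8.17% of all genes did). H2-Ob differed by 0.85 (SE 0.24, adjusted p = 0.023), Ciita by 0.75 (SE 0.23, adjusted p = 0.030) and H2-Aa by 0.69 (SE 0.21, adjusted p = 0.030), while H2-DMb1 was at 0.53 (SE 0.23, adjusted p = 0.11). The rescaled change of H2-Aa was 0.34 ± 0.52 in TKI mice (n = 7) and -0.35 ± 0.18 in CML mice (n = 5, all lower), and in control mice it was 0.26 ± 0.10 (SD, n = 3). None of the 10 passed without CML mouse 484, and 10 passed without TKI mouse 513. The rescaled difference of H2-Aa was 1.18 within batch 2022_A (4 TKI mice and 1 CML mouse) and 0.36 within 2022_B (3 TKI and 2 CML mice).

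After the last dose class II RNA went down in most TKI mice. All 10 genes fell from week 10 to the last week in the 6 TKI mice with later libraries (adjusted p from 0.00098 to 0.025), where 16.4% of all genes fell, with a median of -2.06 over the 10 genes and -0.06 over all genes. TKI mouse 514 ended at week 10 and was left out, and the week 10 libraries also enter the comparison before. Ciita stood at 2.64, 0.479, 5.07, 5.65, 1.36 and 4.48 TPM at the last week in TKI mice 502, 507, 508, 511, 512 and 513, against 32.6, 14.7, 24.8, 8.04, 14.0 and 13.8 TPM at week 10. The 6 mice were all lower, the groups did not overlap, and Ciita fell by 2.21 (SE 0.53, adjusted p = 0.0024). H2-Aa stood at 57.2, 13.6, 114, 224, 40.5 and 188 TPM, against 602, 244, 384, 189, 201 and 385 TPM at week 10. It was lower in 5 of 6 mice, with mouse 511 the exception, and fell by 2.04 (SE 0.63, adjusted p = 0.015).

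H2-Ob stood at 7.71, 1.32, 16.1, 17.1, 4.47 and 16.3 TPM at the last week in these mice, against 136, 56.9, 92.8, 18.0, 45.2 and 35.3 TPM at week 10. It was lower in all 6 and fell by 2.55 (SE 0.80, adjusted p = 0.017), with the deepest falls in mice 502, 507 and 512. H2-DMa fell by 1.20 (SE 0.40, adjusted p = 0.025) and H2-DMb1 by 1.22 (SE 0.37, adjusted p = 0.015), the smallest falls of the 10. Mice 502, 507 and 512 had their last library at week 16, mouse 508 at week 12, and mice 511 and 513 at week 11. After rescaling, the 10 falls ran from 1.10 for H2-DMa to 2.43 for H2-Ob and all passed (26.5% of all genes were lower).

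Control mice were also lower at their last week than at week 10, with H2-Aa at -1.01 ± 0.32 (SD, n = 3). With their change subtracted none of the 10 passed on the TPM scale (differences from -0.37 to -1.35) or after rescaling (from -0.80 to -1.78, adjusted p from 0.11 to 0.34). The last weeks differed between TKI mice (11 to 16) and control mice (18). With batch as a term 3 of 10 passed. Within batch 2022_A the change of H2-Aa was -2.87 (4 mice) and within 2022_B it was -0.39 (2 mice). On the TPM scale 3 of 10 passed without TKI mouse 502 and 6 without mouse 507.

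Week by week, the 3 TKI mice that reached week 16 moved below the controls. H2-Aa stood at 123 to 144 TPM at week 13, 76.1 to 148 TPM at week 14, 31.5 to 109 TPM at week 15 and 13.6 to 57.2 TPM at week 16 in TKI mice. In control mice it stood at 307 to 738, 247 to 435, 272 to 740 and 339 to 661 TPM in those weeks. The cohorts did not overlap in any of these 4 weeks, on the TPM scale or after rescaling, where the week 16 levels were 12.1 to 61.3 in TKI mice and 305 to 452 in control mice. These weekly levels were not tested.

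The end states were compared with those of control mice as changes from week 0. At the last week H2-Aa stood at 9.65, 134 and 329.5 TPM (lowest, median and highest) in CML mice, at 13.6, 114 and 468 TPM in TKI mice, and at 229, 501 and 768 TPM in TOTO mice, against 170, 310 and 324 TPM in control mice. CML mouse 542, at week 16, had the lowest values, with 9.65 TPM of H2-Aa, 0.907 TPM of H2-Ob and 0.404 TPM of Ciita. No gene of the 10 passed for CML minus control (0% of all genes called, 128 at an unadjusted p under 0.05), with changes from -0.51 for H2-Eb2 to -1.80 for H2-Ob (SE 1.21). After rescaling, the CML differences were -0.67 to -1.93 (adjusted p from 0.15 to 0.38, 0% called). H2-Ob was nevertheless lower at the last week than at week 0 in 6 of 6 CML mice and in 3 of 3 control mice.

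For TKI minus control, none of the 10 passed on the TPM scale (15.3% of all genes were called), with a median of 0.00 over the 10 genes and 1.36 over all genes. After rescaling, the TKI differences were -1.05 to -2.29, with adjusted p from 0.082 to 0.14 (0.979% of all genes called). Mouse 514 was the single TKI mouse whose last library was from week 10, at the end of nilotinib. Without it all 10 genes were lower after rescaling (adjusted p from 0.0136 to 0.0274, where 7.37% of all genes were lower), from -1.31 for H2-Eb2 (SE 0.32) to -2.64 for H2-Ob (SE 0.76), while on the TPM scale none passed. The TPM-scale differences of Ciita, H2-Eb2, H2-DMa, H2-DMb1 and H2-Oa were above 0, between 0.16 and 0.55, and their sign turned with rescaling. For TOTO minus control none passed (0% called, 16 genes at an unadjusted p under 0.05), with differences from -0.36 to 0.21, and after rescaling from -0.07 to 0.51. The standard errors, up to 1.30 for H2-Ob in TOTO minus control, leave room for large differences in either direction.

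**Figure D4:**
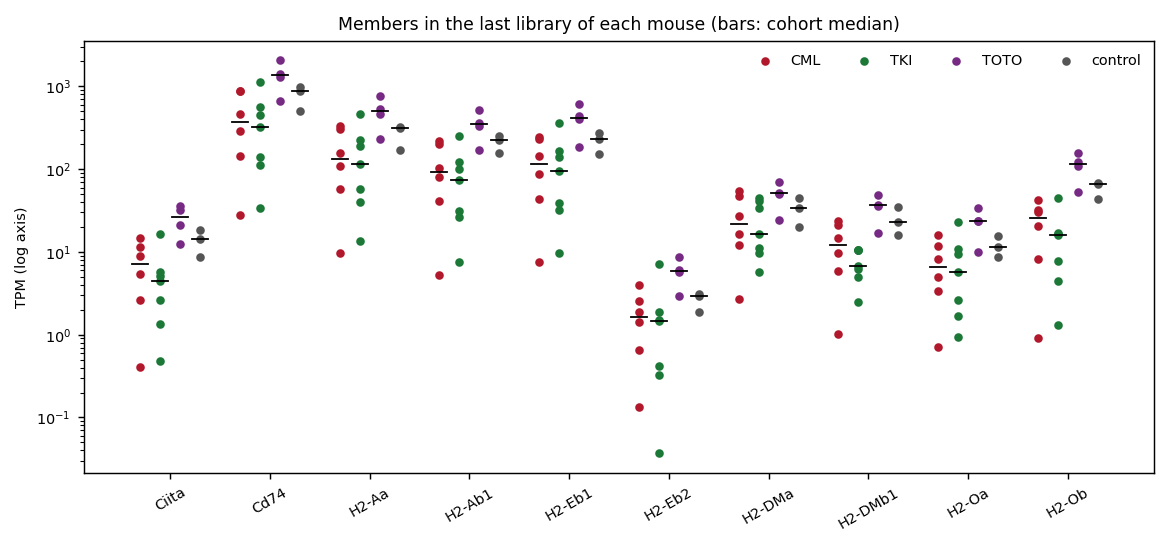
TPM (log axis) of the 10 genes at each mouse's last week, 1 point per mouse in CML, TKI, TOTO and control columns, with bars at the cohort medians. CML mouse 542 and TKI mouse 507 hold the lowest points, and the 4 TOTO mice overlap the 3 control mice in H2-Aa, at 229 to 768 TPM and 170 to 324 TPM.

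B cell genes moved in the same direction as the class II genes in these comparisons. At induction 11 of 12 listed B cell genes fell (median -1.38), with Fcer2a at -2.19 (adjusted p = 0.0020), Fcmr at -1.72 (adjusted p = 0.0057), Pax5 at -1.69 (adjusted p = 0.0072) and Cr2 at -1.50 (adjusted p = 0.011). At shut-off 11 of 12 rose (median 1.91), with Fcer2a at 2.70, Cr2 at 2.13, Fcmr at 2.29 and Pax5 at 2.05 (adjusted p from 1.9e-07 to 9.0e-06). After nilotinib 10 of 12 fell (median -2.42), with Cd22 at -2.25 (adjusted p = 0.0075) and Pax5 at -2.40 (adjusted p = 0.0090). The summed TPM of the 12 genes at the last week was 25.0 to 445 in CML mice, 70.6 to 679.7 in TKI mice and 424 to 1373 in TOTO mice, against 358 to 629 in control mice. The part of B cell number in the class II values was not tested.

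Other cell types moved as well. All 8 neutrophil genes listed fell at shut-off (median -2.74, Ly6g at -3.25 with adjusted p = 9.1e-13) and rose after nilotinib (median 2.40), and 6 of 8 rose at induction (median 1.91, Ltf at 4.80 with adjusted p = 2.6e-05). Of 7 T cell genes, 3 fell at induction, 5 rose at shut-off and 6 fell after nilotinib (12.2%, 18.2% and 16.4% of all genes did). As a difference from controls at induction no gene passed on the TPM scale (0% of all genes called). The differences then ran from 0.0081 to 0.36 in T cell genes and from -0.079 to 0.53 in NK cell genes. Of 5 NK cell genes, 4 fell at induction (median -1.03) and 5 after nilotinib (median -1.29), and 1 rose at shut-off. This was Ncr1, an activating receptor, at 0.87 (adjusted p = 0.0345), against -1.22 at induction (adjusted p = 0.020) and -1.67 after nilotinib (adjusted p = 0.000165). Of 5 platelet genes, 4 rose at induction (median 1.09), 4 fell at shut-off (median -1.06) and 5 fell after nilotinib (median -2.46). Their rise lay in the first week, with changes from 1.34 to 2.51. From week 1 to week 6 the changes of the 5 ran from -0.24 to -0.61. Gp1bb, part of a platelet adhesion receptor, was at 2.27 at induction (adjusted p = 0.00023) and at -2.29 at shut-off (adjusted p = 6.1e-08). None of the 5 red cell genes passed in these 3 comparisons. Genes of dendritic cells, which carry much class II per cell, were low. Of 8 dendritic genes listed 6 were measured and 2 reached a mean of 1 TPM, and neither passed in these 3 comparisons. Their summed TPM was 1.66 to 19.3 in CML, 3.24 to 10.7 in TKI and 8.19 to 16.1 in TOTO mice, against 5.85 to 23.7 in control mice at the last week. Of 8 monocyte genes 1 rose and 1 fell at induction (median 0.43) and at shut-off (median -0.09). The part of these cell types in the class II values was not tested.

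Expressed relative to the mean of the 12 B cell genes, the class II genes spread apart. On this scale the median of all genes moved by 1.06 at induction and 96.1% of all genes were higher, so the 8 of 10 class II genes that were higher lie below that background. H2-DMa was at 0.94 (adjusted p = 4.5e-08), H2-Oa at 0.69, H2-Eb1 at 0.63 and H2-Aa at 0.53 (adjusted p = 2.3e-06), and each was higher in 17 of 17 Tet-off mice. H2-Ob was at -0.17 (adjusted p = 0.026), one of 52 genes (0.494%) that were lower, and lower in 14 of 17 mice. The change of H2-Aa was 0.07 to 0.98 over the 17 Tet-off mice and at most 0.17 in control mice, so the groups overlapped, and the difference from controls did not pass for any of the 10 (0% of all genes called). At shut-off H2-DMa was at -0.93 (adjusted p = 0.00041), H2-Eb2 at -0.71 (adjusted p = 0.0054) and Ciita at -0.53 (adjusted p = 0.029) relative to the B cell genes, 6 of the 10 were lower, and 96.3% of all genes were. H2-Ob was at 0.03 (adjusted p = 0.88).

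After nilotinib, relative to the B cell genes, H2-DMa was at 1.18 (adjusted p = 0.0012), H2-DMb1 at 1.16 (adjusted p = 0.0013) and H2-Eb2 at 0.71 (adjusted p = 0.038), while the other 7 did not pass. The median of all genes was at 2.32 and 95.8% were higher. H2-Aa, at 0.34 (adjusted p = 0.25), and H2-Ob, at -0.17 (adjusted p = 0.53), were among those 7.

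The ratio of H2-Ob to H2-DMa RNA can be read within each library, where scaling of libraries moves it only through the pseudocount. This ratio was chosen after the values were seen and is given without a test. It does not stand for the balance of H2-O to H2-DM, because the other subunits differed. From week 0 to week 6 H2-Oa over H2-DMb1 rose in most Tet-off mice and fell in TKI mice 513 and 514. In CML mouse 480 H2-Oa and H2-DMb1 went from 65.6 and 134 TPM to 25.4 and 34.9 TPM. In TKI mouse 514 they went from 12.7 and 6.19 TPM to 10.9 and 9.17 TPM. The log2 ratio of H2-Ob to H2-DMa averaged 1.50 ± 0.20 in CML, 0.97 ± 0.60 in TKI and 1.57 ± 0.14 in TOTO mice at week 0, against 1.51 ± 0.15 in control mice (SD). At week 6 it averaged 0.34 ± 0.61, 0.06 ± 0.53 and 0.18 ± 0.24 in CML, TKI and TOTO mice, against 1.23 ± 0.11 in control mice. The change was -1.11 ± 0.45 over the Tet-off mice, lower in 17 of 17, and -0.29 ± 0.15 in control mice, lower in 3 of 3. In the 17 Tet-off mice the changes ran from -1.96 to -0.43, and in control mice from -0.46 to -0.19, so that the groups touched.

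At week 8 the ratio averaged 1.28 ± 0.28 in TOTO mice, against 1.25 ± 0.15 in control mice, and from week 6 to week 18 it changed by 0.96 ± 0.16 in TOTO mice (higher in 4 of 4) and by -0.37 ± 0.25 in control mice (lower in 3 of 3). At the last week it averaged -0.32 ± 0.54 in CML, -0.75 ± 0.62 in TKI and 1.14 ± 0.09 in TOTO mice, against 0.86 ± 0.26 in control mice. CML mice ranged from -0.95 to 0.32 and TKI mice from -1.53 to -0.02, below the control range of 0.57 to 1.06. At the last week the ratio thus stood below 0, with less H2-Ob than H2-DMa RNA per length, in TKI mice and in most CML mice. TKI mice 511, 513 and 514, all of batch 2022_B, already had H2-Ob closer to H2-DMa at week 0. Their levels were then 20.3 against 15.9, 38.4 against 29.0 and 33.6 against 26.1 TPM. TKI mice 502, 507, 508 and 512, of batch 2022_A, had 33.6 against 13.1, 62.5 against 18.8, 55.4 against 24.9 and 102 against 32.8 TPM. At week 1 mouse 511 had 65.7 against 27.8 TPM. By week 2 mice 511, 513 and 514 had less H2-Ob than H2-DMa, at 38.4 against 52.1, 12.8 against 17.3 and 22.5 against 27.9 TPM. At week 6 their levels were 36.3 against 47.9, 30.2 against 45.0 and 20.9 against 29.3 TPM.

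**Figure D5:**
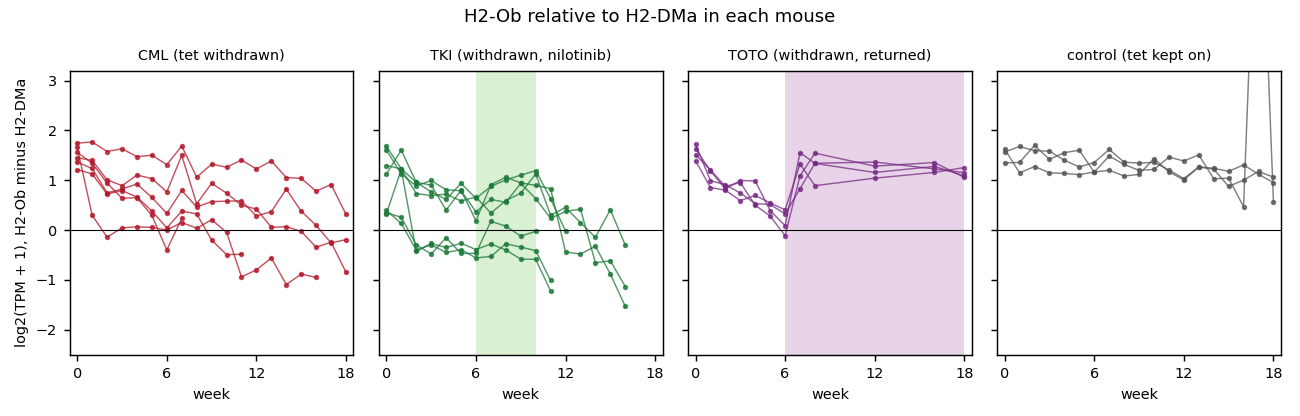
Log2 ratio of H2-Ob to H2-DMa by week, 1 line per mouse, by cohort. TOTO mice stand at 1.28 ± 0.28 at week 8, against 0.18 ± 0.24 at week 6, and the week 17 library of control mouse 490, at 8.27, lies outside the axis.

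Partners of the class II genes were described as a list of 17 genes, all tested: the promoter factors of the X and Y boxes (Rfx5, Rfxank, Rfxap, Creb1, Nfya, Nfyb and Nfyc), the endosomal proteases and reductase that process invariant chain and antigen (Ctss, Ctsl, Ctsb, Ctsd, Lgmn, Ifi30 and Sppl2a), the ubiquitin ligases Marchf1 and Marchf8, and H2-DMb2. At induction 1 of 17 rose and 3 fell, while 3.86% of all genes rose and 12.2% fell. Ctsl, a cathepsin, rose by 1.26 (adjusted p = 0.013), while Rfx5, the X box factor subunit, fell by 1.10 (adjusted p = 0.026), H2-DMb2 by 1.01 (adjusted p = 0.044) and Creb1 by 0.96 (adjusted p = 0.047). At shut-off 3 of 17 rose and 2 fell, while 18.2% of all genes rose and 5.2% fell. The 3 that fell at induction and the 3 that rose at shut-off are near the share of all genes, so these counts are no result about the list. Rfx5 rose by 1.30 (adjusted p = 0.0021), H2-DMb2 by 1.52 (adjusted p = 0.0012) and Creb1 by 1.02 (adjusted p = 0.038), while Ctsl fell by 1.22 (adjusted p = 0.016) and Ctsd by 0.80 (adjusted p = 0.027).

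After nilotinib Ctsl rose by 1.31 (adjusted p = 0.011), the single partner to rise (8.83% of all genes rose and 16.4% fell), while Marchf8 fell by 1.38 (adjusted p = 0.00022), Rfx5 by 1.15 (adjusted p = 0.0061) and H2-DMb2 by 2.24 (adjusted p = 0.012). From week 1 to week 6, Ctsl at 1.17, Ifi30 at 1.08, Lgmn at 0.61 and Ctss at 0.83 rose in Tet-off mice (adjusted p from 0.00061 to 0.011), and Marchf8 fell by 0.62 (adjusted p = 0.0024). Rfx5, H2-DMb2 and Creb1 fell at induction and rose at shut-off, as Ciita did, and Ctsl did the opposite, in comparisons that share the week 6 libraries of the TOTO mice. Rfxank, Rfxap, Nfya, Nfyb and Nfyc did not pass in these comparisons on the TPM scale.

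Interferon gamma, a cytokine that induces Ciita outside B cells, has other target genes, of which 16 were listed and 15 tested. At induction 2 of 15 fell, near the 12.2% of all genes that did, Gbp4 by 1.40 (adjusted p = 0.0084) and Nlrc5, the class I counterpart of Ciita, by 1.28 (adjusted p = 0.018). At shut-off 6 of 15 rose (median 0.84, with 18.2% of all genes higher), with Gbp4 at 1.63 (adjusted p = 0.00072), Nlrc5 at 1.48 (adjusted p = 0.0045), Irf8 at 1.17 (adjusted p = 0.017) and Gbp5 at 0.84 (adjusted p = 0.031). After nilotinib 6 of 15 fell (median -0.55, with 16.4% of all genes lower), with Igtp at -2.41 (adjusted p = 0.00013), Irf8 at -1.51 (adjusted p = 0.0049), Gbp3 at -0.95 (adjusted p = 0.0097) and Gbp5 at -0.84 (adjusted p = 0.019). The class II medians of 1.42 and -2.06 in the same comparisons were farther from 0.

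The pattern over time was compared with every other tested gene as a description, by Pearson's r over the 298 libraries of the rescaled values centred within each mouse. The libraries share mice and cell composition, so no p was computed. Among the genes most like the mean of H2-Aa, H2-Ab1, H2-Eb1 and Cd74 were Cd79a (r = 0.951), Mzb1 (0.948), Igkc (0.938), Cd22 (0.932), Ighm (0.921), Ly6d, Fcrla, H2-DMb2 (0.916) and Ephx1 (0.913), most of them B lineage genes. Those most like Ciita were Bcl11a (0.945), Blk (0.944), Pax5 (0.935), Fcer2a (0.934) and Fcmr (0.928). Among the 10 genes, Ciita had r of 0.957 with H2-Ob, 0.696 with H2-Aa, 0.663 with H2-Oa and 0.450 with H2-DMa. The 45 pairs of the 10 genes ranged from 0.223 to 0.983 with a median of 0.834. Csf1r, 1 of the 8 monocyte genes listed, had r of -0.011 with the mean of the 4 genes and -0.256 with Ciita. The r of the other monocyte genes is not given here, so this value does not stand for the list.

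These values include the week 17 library of control mouse 490, which moves the low ones. Over the 297 libraries without it, the r of Ciita was 0.954 with H2-Ob, 0.899 with H2-Aa, 0.864 with H2-Oa and 0.776 with H2-DMa, and the 45 pairs ranged from 0.726 to 0.988 with a median of 0.912. On the TPM scale with all 298 libraries the pairs ranged from 0.792 to 0.993 with a median of 0.935, and without that library from 0.898 to 0.995 with a median of 0.957. On the TPM scale, though, the median r of all other tested genes with Ciita was 0.675, against -0.106 after rescaling. Without the library, 8 of the 10 genes closest to the mean of the 4 genes and 3 of the 5 closest to Ciita were among the closest again, and H2-DMb2 came first for that mean (0.976).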

How the data were processed

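The authors deposited TPM per gene for 298 libraries. Per the submitters' processing notes, STAR, Salmon and GRCm39 were used, with versions not given in the sources used here. All columns were matched to a mouse and week (0 unmapped), and 14537 gene identifiers to GENCODE M39. TPM sums ran from 989100 to 999879 per library and keep no depth, so no counting error is given. From the deposited TPM, log2(TPM + 1) was computed here, a scale that understates changes of low genes, and genes averaging 1 TPM or more entered the tests. Each mouse gave 1 change between 2 weeks, which blocks on the mouse. Changes were fitted over cohorts with limma 3.58.1 (eBayes with trend) in R 4.3.3, with Benjamini-Hochberg adjustment over all 10519 genes at 0.05. Libraries of the same mouse are paired by the labels' mouse numbers, and their residuals at weeks 0 and 6 had a mean r of 0.189 (-0.00974 between mice). Summaries used Python 3.11.15, numpy 2.4.6, pandas 2.3.3, matplotlib 3.10.9 and data.table (1.17.8). The fit was tested on simulated data.

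Alternatives were rescaling by median-ratio size factors (from 13486 genes), values relative to B cell genes, a pseudocount of 0.1, no filter, other weeks, a batch term, no block, leaving out haemoglobin genes and Rn7s2, and leaving out each mouse. Subtracting the control change, another variance trend, a list of 4 B cell genes, rescaled fits without each mouse, and correlations without the week 17 library of control mouse 490 or on the TPM scale were added after seeing the data. The genes described and the lists were chosen with earlier results of these data known. All 10 genes are named, and of each list described in detail up to 4 genes that passed, smallest p first, and for the other cell types mainly counts. No label says whether week 6 blood preceded the first nilotinib dose or the returned tetracycline, and it was taken as the level before either. 1 gene of the likeness ranking is not reported here.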

Additional observations from a re-analysis of the deposited data

Results flagged for a closer look

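In 310 groups of 4 to 10 mice (1 gene in 1 cohort and week), 19 held a highest or lowest value far from the rest by Dixon's criterion, which chance alone meets in about 1 group in 20, and the 10 genes of a library are not independent of each other. They came from 4 libraries. In each of these the genes that did not meet the criterion held the same extreme rank, so the counts below are of flagged genes only. In TOTO mouse 545 at week 0, 7 genes were flagged as the lowest of 4 mice. Ciita was at 23.2 TPM (next mouse 77.8), H2-Aa at 325, H2-Ab1 at 263 and H2-Eb1 at 264 TPM. H2-DMa was at 33.8, H2-DMb1 at 31.6 and H2-Oa at 17.1 TPM. After rescaling, H2-Aa in this library was at 276, against 288 to 330 in the other TOTO mice at week 0. This library is a starting point of the induction comparison. In TKI mouse 514 at week 8, during nilotinib, 6 genes were flagged as the highest of 7 mice. Ciita was at 19.1 TPM (next mouse 10.5), Cd74 at 1317 and H2-Aa at 550.3 TPM. H2-Ab1 was at 285, H2-Eb2 at 7.50 and H2-Oa at 26.1 TPM. In CML mouse 484 at week 10, 5 genes were flagged as the lowest of 5 mice. Cd74 was at 425 TPM (next mouse 828), H2-Aa at 154, H2-Ab1 at 99.5, H2-Eb1 at 127 and H2-Oa at 9.21 TPM. In TOTO mouse 483 at week 8, H2-Ob was flagged as the highest of 4 mice at 271 TPM (next mouse 159).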

How the results depend on the processing

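Counts below are of the 10 genes in the called direction. The share of all genes called is not given for every setting. After rescaling, 9 fell at induction, 6 rose from week 1, 2 fell at induction relative to controls, 4 rose under nilotinib and 9 relative to untreated mice (7 of these with the variance trend on the mean level, which left the other 4 rescaled counts at 9, 6, 2 and 4). Leaving out haemoglobin genes and Rn7s2 gave 10 at induction, 4 from week 1, 2 under nilotinib and 6 relative to untreated mice. The fit with no replicate block (mice not paired) gave 7 at induction, 1 from week 1 and 5 at shut-off, where no filter gave 6. A pseudocount of 0.1 gave 4 in the first week. The batch term left 0 at induction, from week 1, in the first week and at shut-off, and 3 after nilotinib. Subtracting the control change left 0 from week 1, in the first week and after nilotinib, also after rescaling. It turned H2-DMa to -0.17 and H2-Oa to -0.095 from week 1, and in the first week Cd74 to 0.41, H2-Aa to 0.26, H2-Ab1 to 0.36, H2-Eb1 to 0.43, H2-Eb2 to 0.094, H2-Oa to 0.27 and H2-Ob to 0.41.

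Relative to B cell genes the counts in the called direction were 1 at induction, 7 from week 1 and 0 in the first week, after nilotinib and at shut-off, since the construction removes the B cell change. Signs turned at induction for Ciita (0.38), Cd74 (0.55), H2-Aa (0.53), H2-Ab1 (0.36), H2-Eb1 (0.63), H2-Eb2 (0.56), H2-DMa (0.94), H2-DMb1 (0.10) and H2-Oa (0.69). In the first week they turned for Ciita (0.38), Cd74 (0.0021), H2-Eb1 (0.0048), H2-Eb2 (0.17), H2-DMa (0.20) and H2-Oa (0.035). At the CML end state H2-Eb2 turned (1.26), under nilotinib Cd74 (-0.28), H2-DMa (-0.37) and H2-DMb1 (-0.33), and relative to untreated mice H2-DMa (-0.51). After nilotinib Ciita (0.17), Cd74 (0.30), H2-Aa (0.34), H2-Ab1 (0.30), H2-Eb1 (0.20), H2-Eb2 (0.71), H2-DMa (1.18), H2-DMb1 (1.16) and H2-Oa (0.55) turned. At shut-off Ciita (-0.53), Cd74 (-0.49), H2-Aa (-0.24), H2-Ab1 (-0.30), H2-Eb1 (-0.49), H2-Eb2 (-0.71), H2-DMa (-0.93), H2-DMb1 (-0.24) and H2-Oa (-0.60) turned.

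Leaving out 1 mouse at a time gave counts of 2 to 9 at induction, 1 to 7 from week 1, 0 to 10 in the first week, 0 to 3 under nilotinib, 3 to 10 after nilotinib and 7 to 10 at shut-off on the TPM scale. After rescaling they were 9, 6, 10, 0 to 9, 10 and 6 to 10 in the same order, 0 to 3 for induction relative to controls and 0 to 10 for nilotinib relative to untreated mice. Rescaled and without TKI mouse 514, all 10 TKI end state differences passed, against 0 with it, and those of Ciita (-1.89), H2-DMa (-1.34), H2-DMb1 (-1.60), H2-Eb2 (-1.31) and H2-Oa (-1.62) had the opposite sign to the TPM scale. H2-DMb1 from week 1 passed rescaled without mouse 487 (-0.25). The cause of these changes was not tested beyond what each setting does by construction. The main limits are 3 control mice, batches that are unevenly spread over cohorts, unknown sequencing depth, and a fixed TPM total.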
